A study of Mus musculus with 12 samples.

Results

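The 8 genes described here encode dystrophin (Dmd), its relative utrophin (Utrn) and 6 of the proteins that assemble with either of them at the muscle cell membrane, namely dystroglycan (Dag1), the alpha, beta and delta sarcoglycans (Sgca, Sgcb, Sgcd), alpha-dystrobrevin (Dtna) and sarcospan (Sspn). They were chosen by name, with earlier results of these data known. Every probe that the deposited table of all probes gives one of these symbols was taken, which made 32 of 56605 probes and 8 of 27306 gene symbols. Of these, 18 probes of 7 genes were bright enough to be tested, among 29664 probes tested in all.

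The arrays measured RNA from C2C12 cells, a myoblast line from C3H mouse muscle that fuses into myotubes when a confluent culture is moved to medium with little serum. All cells had been transfected with a small interfering RNA, either a control (siControl) or one against Bach1 (siBach1), a transcriptional repressor best known for controlling genes of haem and oxidative stress. RNA was taken at day 0 and at day 2 of differentiation, which began when confluent cells received DMEM with 2% horse serum, and each of the 4 groups (siControl day 0, siBach1 day 0, siControl day 2, siBach1 day 2) had 3 arrays. The methods name 1 siRNA against Bach1 for the arrays, so loss of Bach1 and other effects of that sequence cannot be told apart. Nothing in the labels says that the 3 arrays of a group came from separate cultures, so the p-values measure the spread between these samples, which may be technical.

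The dystrophin complex links the actin cytoskeleton of a muscle fibre to the extracellular matrix. Dystrophin or utrophin binds actin on the inside, beta-dystroglycan spans the membrane, and alpha-dystroglycan binds laminin, agrin and perlecan on the outside through sugar chains that a dedicated set of enzymes builds. The sarcoglycans and sarcospan steady this link in the membrane, dystrobrevin and the syntrophins carry signalling proteins to it, and loss of dystrophin, of single sarcoglycans or of the sugar chains causes muscular dystrophies.

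RefSeq promoter windows of 300 bases, from 250 before to 50 after a transcription start in assembly GRCm38.p6, were at hand for 7 of the 8 genes, 10 windows in all. Windows of 3 genes are printed because these genes stand for the patterns described later: Dag1 was lower with siBach1 at both days, Sspn differed by -0.56 at day 0 and missed the threshold, and Sgca changed with differentiation and not detectably with the siRNA. They lie on chr9:108263909-108264208 (minus strand, Dag1), chr6:145931623-145931922 (plus strand, Sspn) and chr11:94976278-94976577 (minus strand, Sgca). Capitals mark every match to CANNTG, the E-box that myogenic bHLH factors bind, or to TGANTCA, the core of the sites bound by AP-1 and by Maf partners such as Bach1, searched on both strands.
Dag1: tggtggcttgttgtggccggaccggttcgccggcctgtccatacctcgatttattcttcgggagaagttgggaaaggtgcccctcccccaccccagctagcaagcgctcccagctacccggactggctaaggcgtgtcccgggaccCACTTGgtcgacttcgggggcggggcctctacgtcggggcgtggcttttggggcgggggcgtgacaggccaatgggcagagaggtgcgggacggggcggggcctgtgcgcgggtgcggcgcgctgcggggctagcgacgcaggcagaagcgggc
Sspn: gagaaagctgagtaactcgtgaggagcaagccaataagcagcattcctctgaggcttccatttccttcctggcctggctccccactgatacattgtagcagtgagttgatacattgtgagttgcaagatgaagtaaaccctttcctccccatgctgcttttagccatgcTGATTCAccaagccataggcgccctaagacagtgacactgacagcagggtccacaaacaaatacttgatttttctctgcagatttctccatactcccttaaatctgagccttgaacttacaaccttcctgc
Sgca: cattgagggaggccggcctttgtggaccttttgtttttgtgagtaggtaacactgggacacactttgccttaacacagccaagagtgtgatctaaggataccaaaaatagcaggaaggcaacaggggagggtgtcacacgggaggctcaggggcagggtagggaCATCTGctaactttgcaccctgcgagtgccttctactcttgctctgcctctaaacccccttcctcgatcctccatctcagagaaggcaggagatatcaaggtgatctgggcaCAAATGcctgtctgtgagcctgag
The Dag1 window holds 1 E-box, CACTTG, at position -104 from the start, the printed Sspn window holds TGATTCA at position -81, and the Sgca window holds 2 E-boxes. A second Sspn window, at chr6:145933872-145934171, has no TGANTCA match and 1 E-box at position -68, and a second Dag1 window overlaps the first and holds the same E-box. The E-box occurred in 7 of the 10 windows and in 72.3% of 32851 mouse promoter windows of the same length. TGANTCA occurred in 2 of the 10, against 7.81% of all windows. CAGCTG, a form of the E-box found in 16.3% of all windows, was in 0 of the 10. A match is a description of the letters and not a bound site, and no match says only that these letters are not in this window.

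Bach1, the targeted gene, was checked first on its probe A_55_P2014337. Its level, given as log2 signal with the 75th percentile of its array subtracted, was 1.73, 1.55 and 1.78 in siControl day 0 and 0.18, -0.22 and -0.22 in siBach1 day 0. At day 2 it was 2.56, 2.55 and 2.58 in siControl and 0.57, 0.56 and 0.65 in siBach1, so the siBach1 arrays lay below the siControl arrays at both days. All 5 markers of differentiating muscle (Myog, Myh3, Acta1, Ckm, Tnnt3) were well above background on 12 of 12 arrays, and their summed linear level was 37.8 to 57.1 in siControl day 0, 33.1 to 49.3 in siBach1 day 0, 1460 to 1600 in siControl day 2 and 973 to 1200 in siBach1 day 2. Of the other cell types checked, endothelium and Schwann cell or neuron had none of 3 markers on all 12 arrays, adipocyte had Lep of 4 and osteoblast Sp7 of 3. Of the markers detected on fewer arrays, the osteoblast gene Bglap, on 8, read -4.14 to -2.79 with siControl and -1.51 to -1.30 with siBach1 at day 2 and -4.60 to -3.70 at day 0. The adipocyte gene Plin1, on 10, read -4.41 to -3.69 in siControl day 0 and -3.46 to -2.16 in siControl day 2. The endothelial gene Pecam1, on 11, read -3.91 to -3.08 at day 0 and -4.16 to -3.01 at day 2. Macrophage or leukocyte had 3 of 4 (Ptprc, Cd68, Itgam), with Adgre1 on no array, and their sum was 14.8 to 18.4 and 14.8 to 17.6 in siControl and siBach1 at day 0, against 22.9 to 29.9 and 19.0 to 29.6 at day 2. That rise was in Itgam (1.04 in siControl and 0.97 in siBach1 cells), while Ptprc fell by 0.79 and by 0.70 and Cd68 by 1.14 and by 0.50, and Cd68 also fell with siBach1 at day 0, by 0.48. These differences are those of the brightest tested probe, and only 1 of 7 Ptprc probes, 1 of 2 Itgam probes and 2 of 3 Cd68 probes were tested. The part of these markers in the results was not tested, and in bulk RNA fewer cells of a type and less RNA per cell cannot be told apart. The share of the 56605 probes well above background was 47.6% to 58.9% per array. Each group occupied its own array column on both slides, so column and group cannot be told apart.

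Dystrophin itself was not measurable on these arrays. None of the 10 Dmd probes passed the filter, and 9 of them were well above background on no array. The exception, A_55_P2719774, was well above background on 2 of 12 arrays, 1 of siControl day 2 and 1 of siBach1 day 2. The levels of the 10 probes lay between -7.48 and -4.04, and no fold is given for this gene. Utrn, by contrast, had 6 of 8 probes tested. Sgcd had 3 of 4 and Dtna 4 of 5, both probes of Sgca passed, and Dag1, Sgcb and Sspn had 1 probe each, which passed. Among the 4 untested probes of Utrn, Sgcd and Dtna, Utrn A_55_P2153961 was well above background on 2 arrays, Dtna A_55_P2037752 on 4, and the others on none. Dtna A_55_P2500791 was tested although 1 of the 3 siControl day 0 arrays had it near background.

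**Figure D1:**
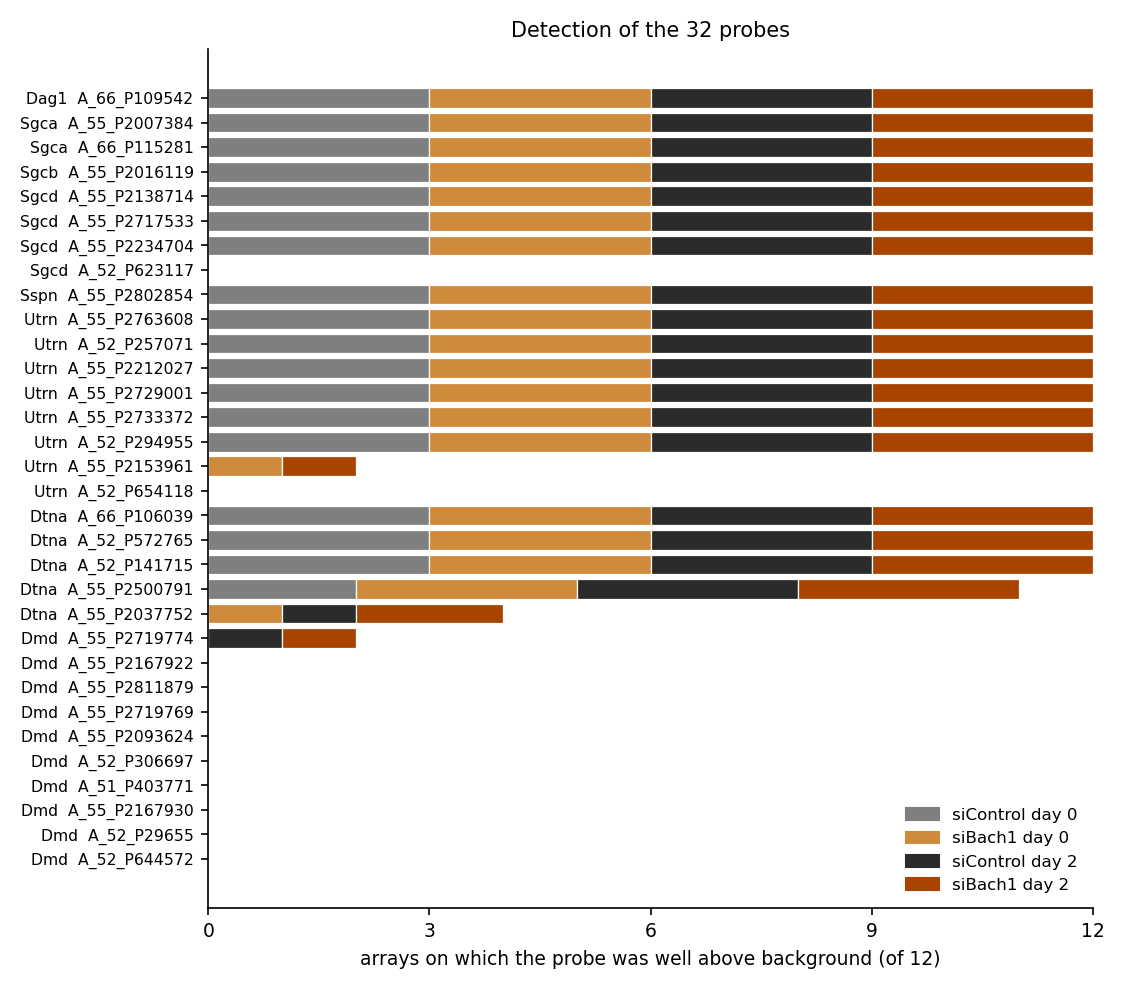
Number of the 12 arrays on which each of the 32 probes of the 8 genes was well above background, with 1 bar per probe. Dmd has no bar longer than 2 arrays, while all 18 tested probes of the 7 other genes reach 11 or 12.

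Differentiation of siControl cells raised most of the measured complex genes. From day 0 to day 2, 15 of 18 member probes were higher and 0 lower at an adjusted p under 0.05 in limma, against 24.6% of all tested probes higher and 28.7% lower, and 9 were at least 2-fold higher, against 10.5% of all. The median log2 difference was 0.96 over the 18 probes and 0.00 over all tested probes. With the brightest tested probe for each gene, 6 of 7 genes rose, against 27.7% of all 15642 genes read the same way, with log2 differences over the 7 from 0.15 to 2.29. On 16 of the 18 probes the arrays of the 2 days did not overlap, which held for 61.9% of all tested probes.

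Dystroglycan, the laminin receptor at the centre of the complex, had the single probe A_66_P109542. Its levels were 4.0, 3.99 and 3.96 in siControl day 0 and 5.64, 5.6 and 5.39 in siControl day 2. All day 2 arrays lay above all day 0 arrays, by 1.56 on the log2 scale (SE 0.09, 2.94-fold, adjusted p 5.3e-07 in limma). Sarcospan, the small tetraspanin-like protein bound to the sarcoglycans, read 2.93, 2.84 and 2.70 on its probe A_55_P2802854 at day 0 and 4.13, 4.22 and 3.63 at day 2. It rose by 1.17 (SE 0.18, 2.25-fold, adjusted p 0.00023), again without overlap.

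The sarcoglycans rose by different amounts. Sgca, whose product is largely restricted to striated muscle, went from 1.64, 1.22 and 1.42 in siControl day 0 to 3.74, 3.83 and 3.60 at day 2 on probe A_55_P2007384, a difference of 2.29 (SE 0.12, 4.90-fold, adjusted p 2.6e-07 in limma). Its second probe, A_66_P115281, read 0.88, 0.34 and 0.85 at day 0 and 2.88, 3.03 and 2.94 at day 2, a difference of 2.26. Both probes thus gave the same size of change with no overlap. Sgcb, which is made in many tissues, read 3.20, 3.07 and 3.16 at day 0 and 4.06, 4.0 and 3.92 at day 2, and rose by 0.85 (SE 0.07, 1.81-fold, adjusted p 5.2e-06).

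The 3 tested probes of Sgcd, the partner of beta-sarcoglycan in the core of the subcomplex, did not give the same answer. On A_55_P2234704 the levels were -2.88, -3.05 and -2.85 in siControl day 0 and -1.54, -1.33 and -1.43 in siControl day 2, a rise of 1.49 (SE 0.15, adjusted p 1.6e-05 in limma, and 0.84 with normexp background correction). The brightest probe, A_55_P2138714, read -1.79, -1.78 and -1.64 at day 0 and -1.53, -1.59 and -1.63 at day 2, a difference of 0.15 (SE 0.08, 95% interval -0.02 to 0.33, adjusted p 0.13). A_55_P2717533 differed by 0.29 (SE 0.21, adjusted p 0.28), and its arrays overlapped. The RefSeq transcript of A_55_P2234704 was not found under the symbol Sgcd in GRCm38.p6, while that of A_55_P2138714 was. A statement on Sgcd therefore holds for a probe and not for the gene.

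Utrophin, which takes the place of dystrophin in immature and regenerating fibres, was higher at day 2 on 5 of 6 tested probes. The brightest, A_55_P2763608, read 3.20, 3.21 and 3.27 in siControl day 0 and 4.10, 3.96 and 4.05 in siControl day 2, a rise of 0.81 (SE 0.12, 1.75-fold, adjusted p 0.0002 in limma). The 4 other probes that rose did so by 0.75 to 1.17, the lowest of them, A_52_P294955, by 0.32 with normexp. On A_55_P2733372 the difference was 0.51 (SE 0.31, adjusted p 0.20, and 0.033 with a replicate block), 0.19 with normexp, and its arrays overlapped.

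Dtna, whose product binds dystrophin, utrophin and the syntrophins, rose on all 4 tested probes, by amounts that differed between them. The brightest, A_66_P106039, read -0.54, -0.34 and -0.47 in siControl day 0 and 0.46, 0.35 and 0.27 in siControl day 2, a difference of 0.81 (SE 0.09, adjusted p 3.7e-05 in limma). A_52_P572765 went from -3.26, -2.94 and -3.43 to -0.80, -1.06 and -0.83, a difference of 2.31 (SE 0.16, 4.97-fold, adjusted p 1.2e-06). A_55_P2500791 went from -3.36, -3.79 and -3.94, with 2 of these 3 arrays well above background, to -1.02, -1.14 and -1.28. Its difference was 2.55 (SE 0.18, 5.86-fold). With normexp background correction, whose offset of 50 narrows the differences of dim probes by construction, the last 2 were 1.33 and 1.24. The remaining probe, A_52_P141715, differed by 0.65 (SE 0.22, adjusted p 0.029, and 0.26 with normexp) and was not called in 8 of 17 alternative analyses.

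**Figure D2:**
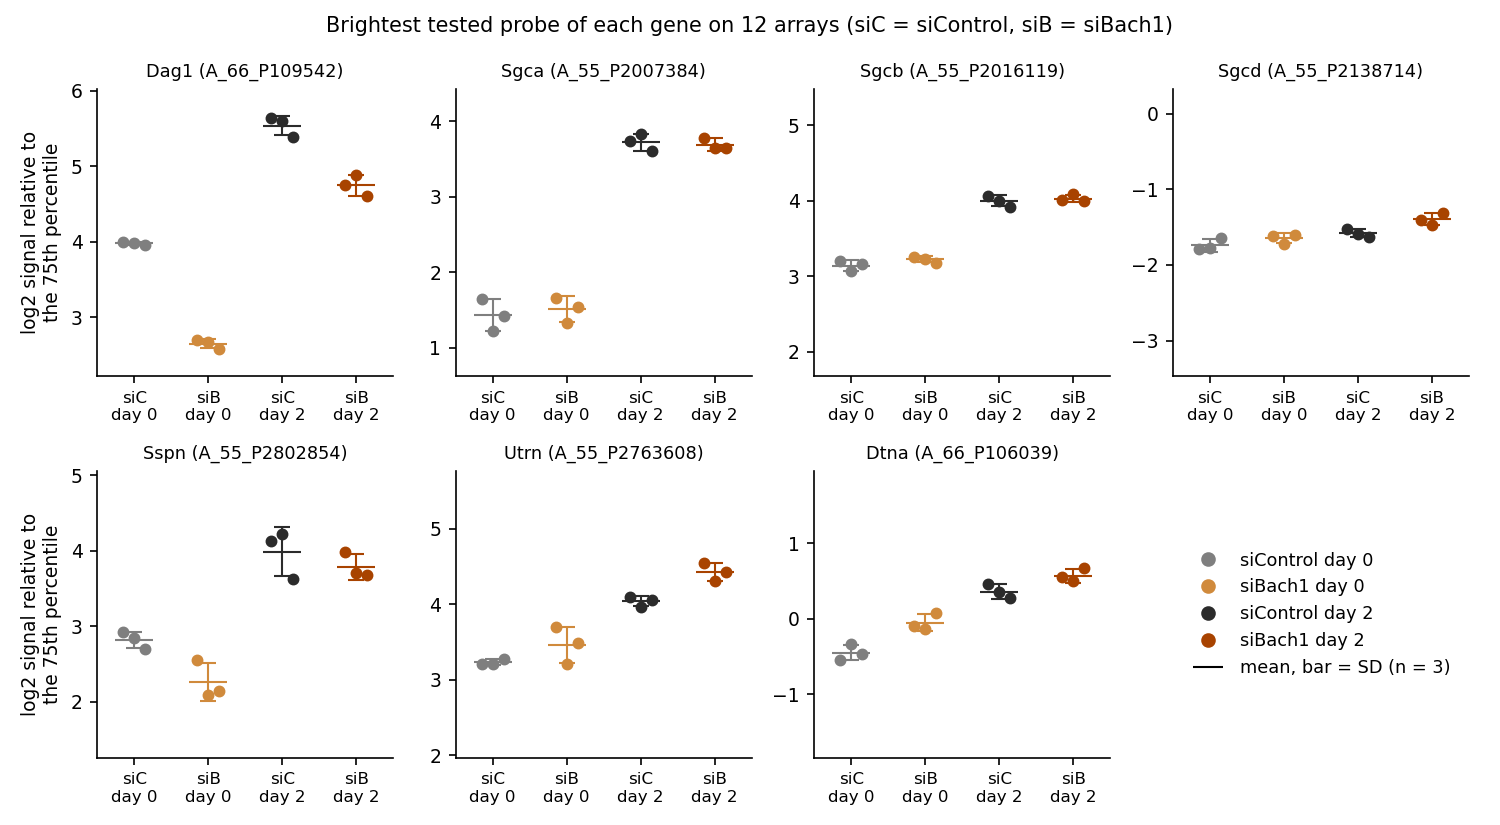
Level of the brightest tested probe of each of the 7 measurable genes on the 12 arrays, in log2 units above the 75th percentile of the same array, by siRNA and day, with the mean and SD of 3 arrays. In Dag1, near 3.98, 2.65, 5.54 and 4.75, and in Dtna all 4 groups lie apart, whereas Sgca and Sgcb separate by day only.

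The same genes were compared between days in siBach1 cells. Here 16 of 18 member probes were higher at day 2 and 0 lower, against 23.8% of all tested probes higher and 32.3% lower, and 7 were at least 2-fold higher, against 10.9%. The median difference was 0.87 over the members and -0.07 over all tested probes. All 7 genes rose on their brightest probe, by 0.25 to 2.18, against 26.7% of the 15642 genes. The lowest of them, Sgcd, was 0.12 with normexp, and its call was lost in 8 of 17 alternatives. On 16 probes the arrays of the 2 days did not overlap, against 61.3% of all tested probes.

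Dag1 had the levels 2.70, 2.67 and 2.58 in siBach1 day 0 and 4.76, 4.88 and 4.61 in siBach1 day 2, a rise of 2.10 (SE 0.09, 4.29-fold, adjusted p 9.7e-08 in limma). Sspn went from 2.55, 2.09 and 2.14 to 3.98, 3.70 and 3.68, a rise of 1.53 (2.88-fold, adjusted p 3.4e-05). In neither gene did the days overlap. Sgca rose by 2.18 (4.52-fold), from 1.66, 1.33 and 1.54 to 3.77, 3.64 and 3.64, and Sgcb by 0.81 (1.75-fold), from 3.26, 3.23 and 3.18 to 4.01, 4.09 and 4.0.

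Utrn A_55_P2763608 rose by 0.96 in siBach1 cells (SE 0.12, adjusted p 5.8e-05 in limma), from 3.69, 3.20 and 3.49 to 4.54, 4.30 and 4.42, and 4 further Utrn probes rose by 0.77 to 0.86 (A_52_P294955 by 0.37 with normexp). Only A_55_P2733372 did not pass, at -0.04 (adjusted p 0.92). The Dtna probes rose by 0.62 (A_66_P106039), 2.14 (A_52_P572765), 2.39 (A_55_P2500791) and 0.88 (A_52_P141715), the last 3 by 1.35, 1.28 and 0.39 with normexp. For Sgcd, A_55_P2234704 rose by 1.75 (SE 0.15, and 0.95 with normexp), while A_55_P2717533 differed by 0.26 (adjusted p 0.34). A_55_P2138714 rose by 0.25 (SE 0.08, adjusted p 0.021, and 0.12 with normexp), a call lost in 8 of 17 alternatives.

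**Figure D3:**
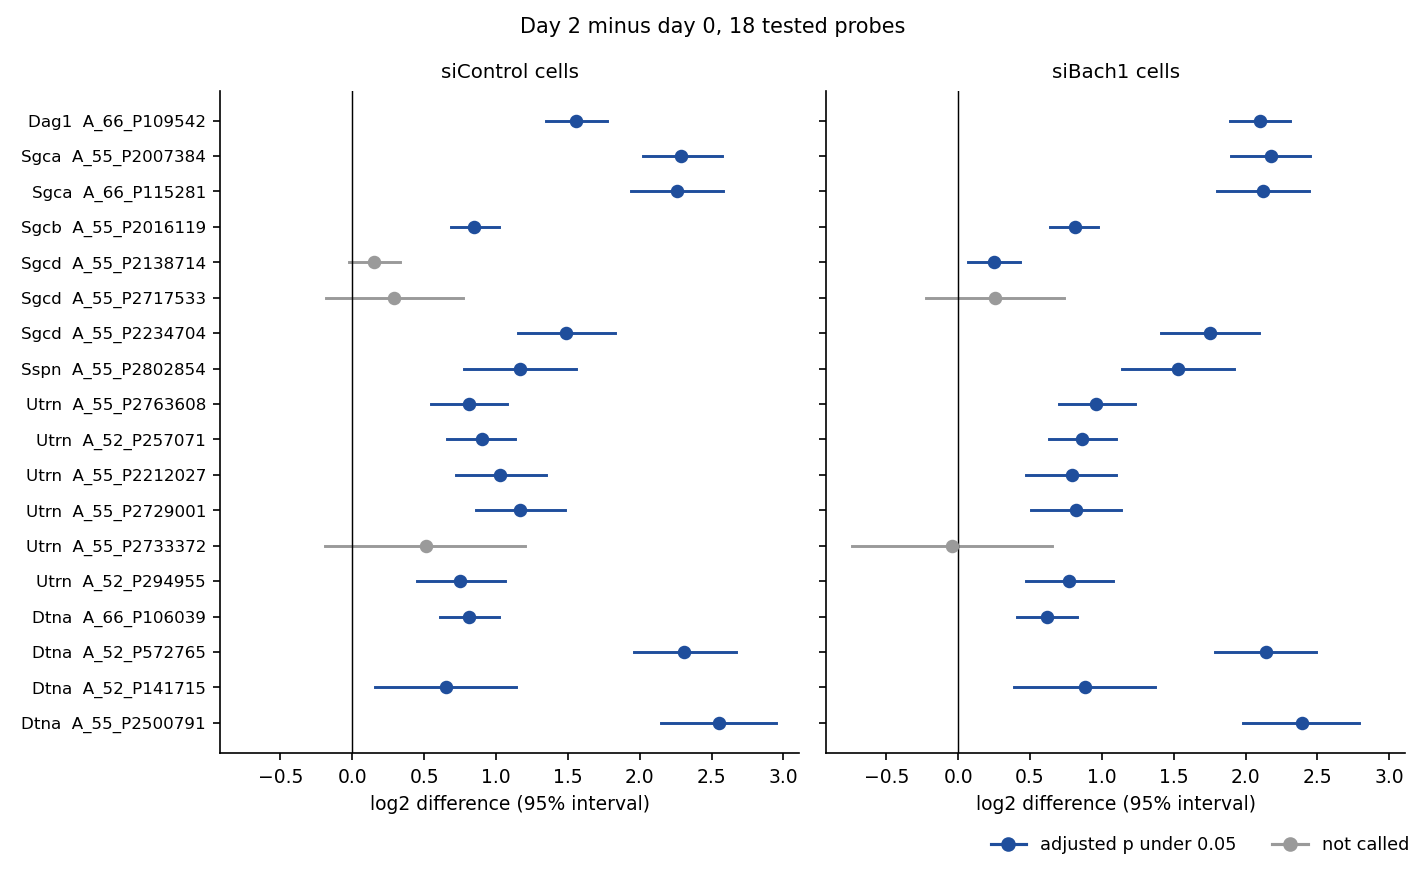
Log2 difference between day 2 and day 0 for the 18 tested probes in siControl and in siBach1 cells, with 95% intervals from limma; called probes are blue. In siControl cells 15 and in siBach1 cells 16 probes are called, all to the right of 0, and the values run from -0.04 to 2.55.

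At day 0, before differentiation began, dystroglycan was the complex member with the clearest difference between siBach1 and siControl cells. Of 18 member probes, 1 (Dtna A_66_P106039) was higher, against 8.8% of all tested probes, and 1 (Dag1) was lower, against 8.32%. The median difference was 0.15 over the members and 0.09 over all tested probes. Arrays did not overlap on 4 member probes, against 37.3% of all.

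Dag1 was 4.0, 3.99 and 3.96 with siControl and 2.70, 2.67 and 2.58 with siBach1. Every siBach1 array lay far below every siControl array, with a spread within each group (SD 0.02 and 0.06) much smaller than the gap. Dag1 fell by 1.33 on the log2 scale (SE 0.09, 95% interval -1.54 to -1.12, adjusted p 2e-05 in limma), to 39.7% of the siControl level. The difference was the 295th lowest of the 29664 probes tested. Within the 2 slides it was -1.31 and -1.38, and across the 17 alternative analyses it stayed between -1.36 and -1.30 and passed the test in each. A single probe carries this result.

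Among the negative differences at day 0, Sspn came next to Dag1. Its arrays read 2.93, 2.84 and 2.70 with siControl and 2.55, 2.09 and 2.14 with siBach1, without overlap. The difference of -0.56 (SE 0.18, 95% interval -0.95 to -0.17, 67.8% of siControl) missed the threshold at an adjusted p of 0.052 in limma. With a replicate block the adjusted p was 0.013, and over the alternatives it ran from 0.013 to 0.16.

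Dtna A_66_P106039 was higher with siBach1, at -0.09, -0.14 and 0.08 against -0.54, -0.34 and -0.47, with no overlap. The rise was 0.40 (SE 0.09, 1.32-fold, adjusted p 0.015 in limma). This call was lost when siControl day 0 replicate 1 (0.065) or siBach1 day 0 replicate 3 (0.054) was left out, and in 3 other alternatives. The other Dtna probes differed by -0.13 to 0.42, none past the threshold, and A_55_P2500791 at 0.42 had an adjusted p of 0.14 (0.036 with a replicate block) and was 0.11 with normexp.

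The 6 Utrn probes differed by 0.08 to 0.67 at day 0, and none passed the test. The values with the replicate block passed for A_55_P2733372 (0.67, adjusted p 0.18 in limma, 0.025 with the block) and for A_52_P294955 (0.31, 0.16, and 0.042 with the block). With normexp these 2 differences were smaller, at 0.31 and 0.07. Among the sarcoglycans, Sgca differed by 0.08 (95% interval -0.19 to 0.36) on its brighter probe and Sgcb by 0.08 (-0.08 to 0.25). Neither interval reaches a difference of the size seen in Dag1. The Sgcd probes lay between -0.15 and 0.20.

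At day 2 dystroglycan was again the member that differed. Of 18 probes 0 were higher, against 5.75% of all tested probes, and 1 (Dag1) was lower, against 6.26%. At an unadjusted p under 0.05 limma counted 3 higher and 1 lower, against 12.7% and 14.6% of all tested probes, and the methods' t-test after Benjamini-Hochberg adjustment counted 0 and 0. The median difference was 0.10 over the members and -0.01 over all tested probes, and arrays did not overlap on 5 member probes, against 32.8% of all.

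Dag1 was 5.64, 5.6 and 5.39 with siControl at day 2 and 4.76, 4.88 and 4.61 with siBach1. The groups did not overlap, and Dag1 fell by 0.79 (SE 0.09, 95% interval -1.0 to -0.58, adjusted p 0.00093 in limma), to 57.8% of siControl. Within the 2 slides the difference was -0.80 and -0.78. The methods' t-test with Benjamini-Hochberg adjustment over all probes gave 0.052, and the call held in the other 16 alternatives that gave a p-value. The change, 1.73-fold, fell short of the 2-fold rule. In these same arrays the summed level of the 5 differentiating muscle markers was also lower with siBach1 (973 to 1200 against 1460 to 1600), and its part in this and the other day 2 differences between siRNAs was not tested. At day 0 the ranges of that sum overlapped (33.1 to 49.3 against 37.8 to 57.1). Read singly at day 2, 1 of the 5 markers was called lower, Myog (-0.98, adjusted p 0.016 in limma), against 7.4% of all genes. The 4 not called differed by -0.57 to -0.24. Of the myoblast markers, Myod1 was lower at day 2 (-0.48, adjusted p 0.036 in limma), Des was not called (-0.15) and Myf5 had no tested probe.

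Utrn A_55_P2763608 read 4.10, 3.96 and 4.05 with siControl and 4.54, 4.30 and 4.42 with siBach1 at day 2, without overlap. The difference of 0.38 (SE 0.12, 95% interval 0.12 to 0.65) had an adjusted p of 0.065 in limma, and of 0.021 with a replicate block. Over the alternatives that p ran from 0.0062 to 0.22. The other Utrn probes differed by -0.05 to 0.33, of which A_52_P294955 at 0.33 had an adjusted p of 0.15 (0.040 with the block) and was 0.12 with normexp.

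The Sspn arrays overlapped at day 2, with 4.13, 4.22 and 3.63 against 3.98, 3.70 and 3.68 and a difference of -0.21 (95% interval -0.60 to 0.18, adjusted p 0.50 in limma). Sgca (-0.04, interval -0.31 to 0.24) and Sgcb (0.04, interval -0.13 to 0.20) differed by less than their error. Dtna A_66_P106039 read 0.46, 0.35 and 0.27 against 0.55, 0.50 and 0.67, which did not overlap, but the difference of 0.21 had an adjusted p of 0.18. Sgcd A_55_P2138714 differed by 0.19 (adjusted p 0.15), also without overlap.

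**Figure D4:**
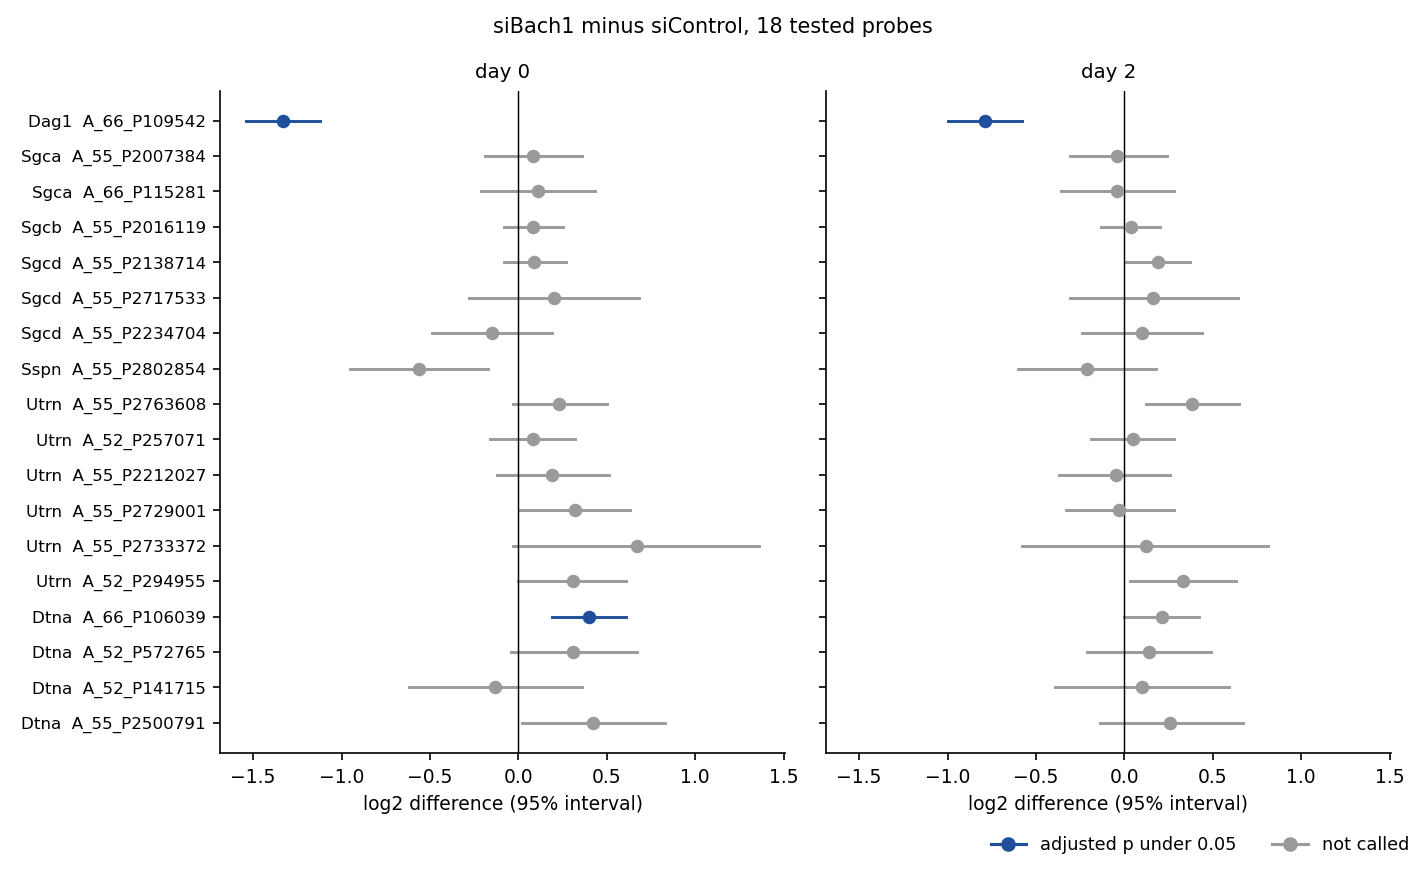
Log2 difference between siBach1 and siControl for the 18 tested probes at day 0 and at day 2, with 95% intervals from limma; called probes are blue. Dag1 stands apart on the left at -1.33 and -0.79, and Dtna A_66_P106039 at 0.40 is the only called probe on the right, at day 0.

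The silencing effect was also compared between the days. Over the 18 member probes 1 difference was called, against 4.59% of all tested probes, and the median was -0.04 against -0.07 over all. That probe was Dag1, whose silencing effect was 0.54 higher, that is less negative, at day 2 than at day 0 (SE 0.13, 95% interval 0.24 to 0.84, adjusted p 0.049 in limma). The call is at the threshold and was lost in 11 of 12 fits that each left out 1 array (values 0.47 to 0.59, adjusted p up to 0.11). For Sspn the same difference was 0.35 (SE 0.25, adjusted p 0.46), and for the remaining brightest probes it lay between -0.19 and 0.15.

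Other members of the complex, 10 genes of which 7 had a tested probe, were read on their brightest probes. In siControl cells 4 rose with differentiation and 1 fell, against 27.7% and 30.1% of 15642 genes, with a median difference of 0.43 against 0.01. Cav3, which encodes the muscle caveolin that binds dystroglycan, rose by 6.04 (SE 0.28, adjusted p 1.1e-07 in limma), from -2.62, -3.81 and -3.68 to 2.94, 2.61 and 2.45. The arrays of the 2 days were far apart. Drp2, a dystrophin-related protein, rose by 1.31, the syntrophin gene Sntb1 by 0.61, and epsilon-sarcoglycan, Sgce, by 0.43, with Sntb1 at 0.27 under normexp. Dtnb, the beta-dystrobrevin of non-muscle tissues, fell by 1.48 (SE 0.23, adjusted p 0.00026), from -0.60, -0.59 and -0.19 to -1.91, -2.27 and -1.66, and its other 3 tested probes differed by -1.72 to -0.98. Sntb2 differed by -0.25 (adjusted p 0.061) and Nos1, the neuronal nitric oxide synthase carried by syntrophin, by 0.15 (adjusted p 0.87). Sgcz, Sntg1 and Sntg2 were well above background on no array.

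In siBach1 cells 4 of these genes rose and 2 fell, against 26.7% and 33.3% of all genes, with a median of 0.43 against -0.06. Cav3 rose by 4.68, Drp2 by 1.35, Sntb1 by 1.00 (0.58 with normexp) and Sgce by 0.43 (0.68 with quantile normalization), while Dtnb fell by 1.12 and Sntb2 by 0.31. For Cav3 the silencing effect differed between days by -1.35 (adjusted p 0.083 in limma, and -0.83 with normexp). With a replicate block it was called lower (0.033), where 6.41% of all genes were higher and 8.93% lower. The other tested Dtnb probes differed by -0.31 (A_52_P136751, adjusted p 0.48), -0.79 and -1.64. Between siRNAs at day 0 limma called 0 of the 7, against 10.1% of all genes higher and 9.85% lower. At an unadjusted p under 0.05 there were 2 higher and 0 lower, against 19.5% and 14.8% of all genes, and by the methods' t-test after adjustment 0 and 0. With a replicate block Dtnb was called lower (-0.47, adjusted p 0.017, against 0.19 without it), where 17.5% of all genes were higher and 13.2% lower, and its other probes differed by -0.40 to -0.14. At day 2 Sntb1 alone was called, against 6.38% of all genes higher and 7.4% lower. It rose by 0.82 (SE 0.16, adjusted p 0.0092), from -1.52, -1.54 and -1.94 with siControl to -1.05, -0.81 and -0.70 with siBach1, with no overlap. It was 0.54 with normexp, and the call was lost by the methods' t-test after adjustment (0.09). The list's medians between siRNAs were 0.14 at day 0 and -0.07 at day 2, against 0.08 and -0.03 over all genes.

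Among the enzymes that build the laminin-binding sugar chain of dystroglycan, Pomt1 fell with siBach1 at both days. Of 11 genes, all tested, 1 fell and 1 rose at day 0, and 1 fell and 0 rose at day 2, against 10.1% of all genes higher and 9.85% lower at day 0 and 6.38% and 7.4% at day 2. The medians were -0.02 and -0.06, against 0.08 and -0.03. With a replicate block 2 enzymes rose at day 2 on these probes, Pomgnt2 (0.51) and B3galnt2 (0.40), against 10.4% of all genes with the block. The other tested B3galnt2 probes differed at day 2 by 1.34 (A_65_P15273, adjusted p 0.0019 without the block) and 0.35 (A_66_P134212, adjusted p 0.81). Pomt1, a subunit of the O-mannosyltransferase that starts the chain, read 0.25, 0.33 and 0.34 with siControl at day 0 and -1.21, -1.14 and -1.66 with siBach1. It fell by 1.64 (SE 0.12, adjusted p 2.8e-05 in limma). At day 2 Pomt1 read -0.10, -0.01 and -0.19 against -1.18, -1.15 and -1.23 and fell by 1.09 (adjusted p 0.00074). The groups did not overlap at either day, and the call held in 17 of 17 alternatives at both. Of the 3 Pomt1 probes only 1, A_51_P483261, was tested, and it carries this result. B4gat1, the glucuronyltransferase that primes the repeat, rose by 0.41 at day 0 (adjusted p 0.011, and 0.070 without the filter on dim probes).

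With differentiation in siControl cells 3 of these 11 enzymes rose and 2 fell, against 27.7% and 30.1% of all genes, with a median of -0.08 against 0.01, and 5 rose and 3 fell with a replicate block, against 32.4% and 34.1% of all genes. Pomgnt2 rose by 0.68, Pomk, the mannose kinase, by 0.58, and B4gat1 by 0.49 (0.28 on its other tested probe). B3galnt2 fell by 0.53 and Pomt1 by 0.41, both calls being made in 13 of 17 alternatives. The other tested B3galnt2 probes gave -0.99 and -0.02. In siBach1 cells 4 rose and 3 fell, against 26.7% and 33.3% of all genes, with a median of 0.13 against -0.06. Of these 4, 1 was not well above background on any siBach1 day 0 array and passed the filter only through siBach1 day 2, where it was higher. Over the 9 enzymes well above background on all arrays of both groups, 3 rose and 3 fell in siBach1 cells, against 24.6% and 36.4% of all genes so detected, and 3 rose and 2 fell in siControl cells, against 26.7% and 31.8%. With a replicate block these were 3 and 4 in siBach1 cells, against 27.6% and 41.0%, and 4 and 3 in siControl cells, against 31.3% and 36.1%.

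Ligands of dystroglycan in the matrix had 9 of 10 genes tested. In siControl cells 6 rose and 0 fell with differentiation, against 27.7% and 30.1% of all genes, and likewise 6 and 0 in siBach1 cells, against 26.7% and 33.3%. The medians were 0.78 and 0.85, against 0.01 and -0.06. Both counts include Lama4, which was well above background on 2 siControl and 0 siBach1 arrays at day 0 and passed the filter only through day 2, where it was higher. Without it 5 of 8 rose and 0 fell under either siRNA, against 26.7% and 31.8% (siControl) and 24.6% and 36.4% (siBach1) of all genes well above background on all arrays of both groups. The medians were then 0.60 and 0.71, against -0.02 and -0.11. Lama2, the laminin chain of the adult muscle basement membrane, read 1.60, 1.67 and 1.87 with siControl and 2.61, 2.39 and 2.78 with siBach1 at day 0. It rose by 0.88 with siBach1 (SE 0.11, adjusted p 0.0005 in limma). Its other tested probes gave 0.53 (adjusted p 0.29), 1.02 (0.1) and 0.85 (0.00051). At day 2 Lama2 read 3.08, 3.04 and 3.1 against 3.64, 3.55 and 3.65 and rose by 0.54 (adjusted p 0.012, and 0.062 without the filter on dim probes). The other probes then gave 0.23 (adjusted p 0.71), 0.60 (0.37) and 0.49 (0.016). On the brightest Lama2 probe the siBach1 arrays were thus the higher ones at both days, the opposite direction to its receptor gene Dag1. Agrn, agrin, was 0.34 higher at day 2 (adjusted p 0.017), a call made in 11 of 17 alternatives. Lama4 was called lower at day 0, but it was well above background on 0 of 3 siBach1 day 0 arrays and the call was made in 8 of 16 alternatives, so no fold is given. The list had 1 gene higher and 1 lower at day 0 and 2 higher and 0 lower at day 2, against 10.1% and 9.85% of all genes at day 0 and 6.38% and 7.4% at day 2, with medians of 0.20 and 0.21 against 0.08 and -0.03. With a replicate block Lamc1 was also higher at day 0 (0.29) and lower with differentiation in siBach1 cells (-0.23), and Lamb2 was higher at day 2 (0.39). The shares of all genes with the block were 17.5% higher at day 0, 37.5% lower with differentiation in siBach1 cells and 10.4% higher at day 2, and the other tested Lamc1 probes differed by 0.38 and 0.08 at day 0.

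**Figure D5:**
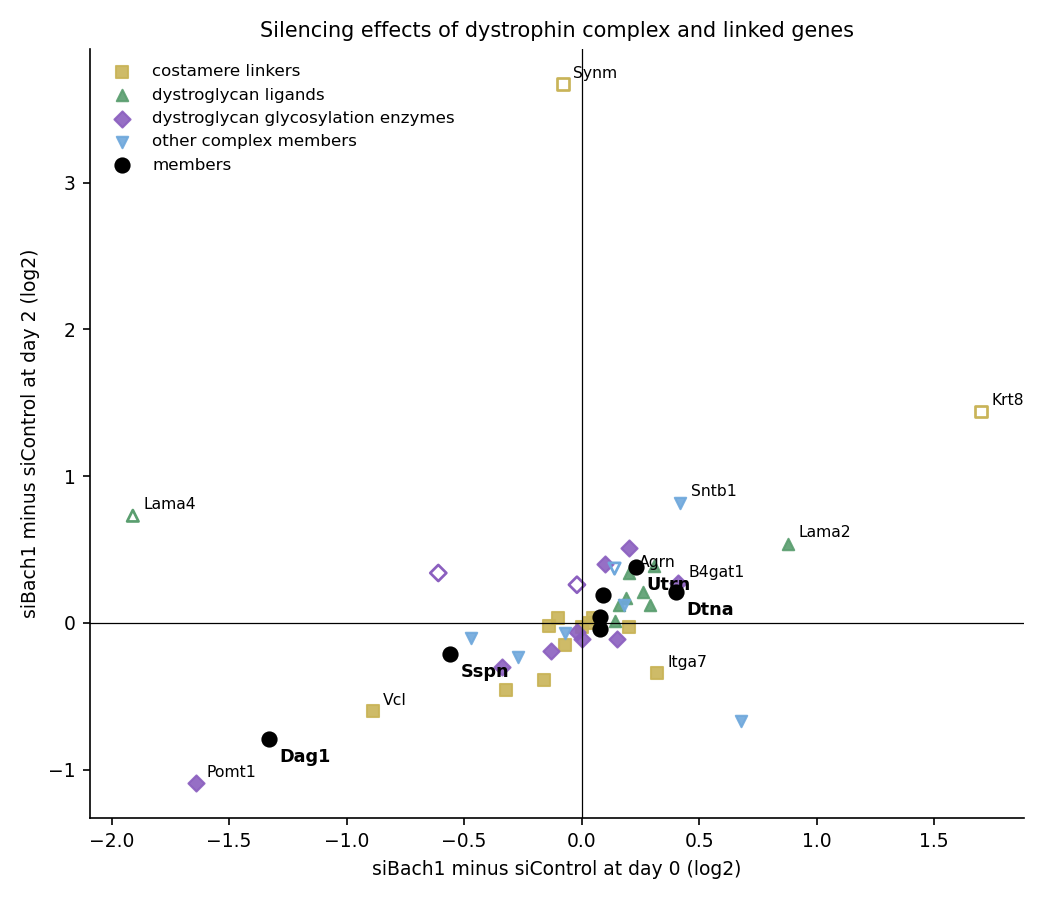
Log2 difference between siBach1 and siControl at day 0 (x axis) against the same at day 2 (y axis) on the brightest tested probe of the 7 members and of 4 lists of related genes, with called genes named. The members Sspn and Utrn are named too, although neither was called. Open symbols are listed genes not well above background on all 12 arrays. Synm, the highest of them, entered the test only through siBach1 day 2, where it was high. Dag1, Pomt1 and Vcl lie at the lower left, below 0 on both axes. Lama2, B4gat1 and Krt8 are among those above 0 on both, Krt8 as an open symbol further out than Lama2. The 2 axes use different arrays.

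Genes whose pattern over the 12 arrays was most like that of each member were found on brightest probes by Pearson's r, as a description only, since the 12 arrays form 4 groups. For Dag1 they were Heca (r 0.991) and Pkia (r 0.988). Pkia differed between siRNAs by -2.02 at day 0 and -0.92 at day 2, and Heca by -0.80 and -0.44. For Sgca they were Casq2 (0.999) and Cacna1s (0.998), for Sgcb Camk2a and Gm15867 (both 0.996), and for Sspn Zc2hc1a (0.988) and Ptgfrn (0.984). Utrn was most like Inpp4a (0.987) and Foxj3 (0.984), Dtna Armcx1 and 4833439L19Rik (both 0.986), and Sgcd Zfp943 (0.969) and Parn (0.958).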

How the data were processed

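RNA of 12 C2C12 samples was labelled with Cy3 and hybridised to 1-colour Agilent SurePrint G3 Mouse GE arrays. The authors deposited each array's scanner output, holding for every spot an intensity from which Feature Extraction had removed background and trend (version 9.1 per the labels, 10.7.3.1 per the file headers), and a table of all probes in which GeneSpring (14.5) gave normalized log2 values. No column of the deposited table belonged to a sample outside the series (0 columns).

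Control spots and outlier spots (76 to 110 per array) were left out, and 0 spots were saturated. Spots of a probe were averaged, signals were taken to log2, and the array's 75th percentile was subtracted (325.5 to 534.4 before the log). These values differed from the authors' deposited normalized log2 values by a median of 0.000964 after removing each probe's centre. The number of arrays limits the precision. Tested probes were those that all 3 arrays of some group showed well above background. One limma fit (3.58.1, R 4.3.3) over the 4 groups gave 5 comparisons, with Benjamini-Hochberg adjustment over 29664 probes. A call is an adjusted p under 0.05, and a second count asks also for a 2-fold change. The fit was tested on simulated data. Python 3.11, pandas 2.3.3, numpy 2.4.6 and matplotlib 3.10.9 were used.

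The 8 genes, the related lists and the cell type markers were chosen with earlier results of these data known. Some genes of the related lists are not reported here and were left out of their counts and medians. All member probes are accounted for, and each related gene is read on its brightest tested probe. All called genes of the other complex members are named, and some of those of the remaining lists. For each member, 2 genes are named as most alike. Of 21 RefSeq accessions of member probes, 20 were found under the same symbol in the RefSeq table of GRCm38.p6. The exception was that of Sgcd A_55_P2234704. The scanner files name another build, so no probe coordinates are given.

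Same-numbered arrays of the 4 groups deviated together (18 pairs, correlations 0.142 to 0.595, against -0.442 to 0.264 for 36 pairs of different numbers). The numbers were therefore taken to pair the samples in an alternative fit with a replicate block, while the main fit had no block. Replicates 1 and 2 share a slide and replicate 3 is on the other. Each replicate number also had its own slide and row, so paired samples and array position cannot be told apart. Alternatives were a replicate block, a slide block, quantile normalization, normexp with an offset of 50, no filter and a stricter filter, the authors' normalized values, a robust prior, only the arrays compared, the methods' t-test, a 2-fold rule, and each array left out in turn.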

Additional observations from a re-analysis of the deposited data

Results flagged for a closer look

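The test of whether the silencing effect on Dag1 (probe A_66_P109542) differed between the days passed the threshold narrowly. Dag1 fell by 1.33 with siBach1 at day 0 and fell by 0.79 at day 2 on the log2 scale, and the difference between these was 0.54 (SE 0.13, adjusted p 0.049 in limma). In all 3 siBach1 arrays at each day Dag1 was below all 3 siControl arrays of that day. Without the filter on dim probes, which adds probes to the adjustment, the adjusted p was 0.24, and the call was lost in 11 of 12 fits that each left out 1 array. Of 20 alternatives in all, 12 lost the call and 8 kept it, among them the replicate block. Their adjusted p ran from 0.0094 to 0.24, and the difference was 0.68 with quantile normalization.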

How the results depend on the processing

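Across 90 member results there were 1579 alternative values. Of these, 1482 kept their direction and their side of the threshold, 34 lost a call, 24 gained one and 39 changed sign. The 2-fold rule was applied to the counts of calls only. It is not among these values, nor among the alternatives counted for single genes. Of the calls on the 18 probes, 15 with differentiation in siControl cells and 16 in siBach1 cells became 9 and 7 under the 2-fold rule and 14 to 15 and 15 to 16 with 1 array left out. The 2 calls between siRNAs at day 0 became 1 under the 2-fold rule, without the filter, with only the arrays compared and by the methods' t-test after adjustment, and 1 to 3 with 1 array left out. Sspn gained a call at day 0 in 7 of 17 alternatives. Among these were normexp (adjusted p 0.042 in limma), the stricter filter (0.04) and the robust prior (0.03). The 1 call at day 2 became 0 under the 2-fold rule, 2 with quantile normalization, normexp or the robust prior, 4 by the methods' t-test unadjusted and 0 after adjustment, and stayed 1 with any array left out. The 1 difference between days became 0 under the 2-fold rule or without the filter and 0 to 1 with 1 array left out.

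Pairing by a replicate block gave 6 calls at day 0 and 3 at day 2, and a slide block 5 and 3, of 18 member probes. Of all 29664 tested probes, the replicate block called 16.2% higher and 11.3% lower at day 0, and 9.78% and 11.6% at day 2. The slide block called 8305 of the 29664 at day 0 and 6457 at day 2. The replicate block ended no call of a member and changed no member's call other than those given beside the results. Over all probes it raised the calls at day 0 from 5079 to 8165 and at day 2 from 3563 to 6331. It raised the differences between days from 1361 to 3865.

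No value that changed sign had passed the test, and the cause was not tested. With quantile normalization the effect of siBach1 at day 2 became 0.05 for Sgca A_55_P2007384 and 0.03 for Sgca A_66_P115281, and the difference between days became 0.04 for Utrn A_52_P257071 and 0.07 for Sgcb. With normexp the effect at day 2 became 0.06 for Sgca A_55_P2007384 and -0.00 for Utrn A_55_P2733372, and the difference between days became 0.03 for Utrn A_52_P257071 and Sgcb, 0.05 for Sgcd A_55_P2717533, 0.01 for Dtna A_52_P572765 and 0.04 for Dtna A_55_P2500791. With 1 array left out, the differentiation effect in siBach1 cells ran from -0.32 to 0.34 for Utrn A_55_P2733372. The effect at day 0 ran from -0.05 to 0.15 for Utrn A_52_P257071, -0.02 to 0.19 and -0.07 to 0.21 for Sgca A_55_P2007384 and A_66_P115281, and -0.27 to 0.02 for Sgcd A_55_P2234704. The effect at day 2 ran from -0.14 to 0.09 for Utrn A_55_P2212027, -0.10 to 0.05 for Utrn A_55_P2729001, -0.10 to 0.02 and -0.07 to 0.00 for the Sgca probes in the same order, -0.00 to 0.07 for Sgcb, -0.01 to 0.39 for Sgcd A_55_P2717533 and -0.08 to 0.35 for Dtna A_52_P141715. Where a range ends at 0.00 or -0.00, the value of changed sign was smaller than the digits shown. The difference between days ran from -0.11 to 0.10 for Utrn A_52_P257071, -0.11 to 0.13 for Utrn A_52_P294955, -0.24 to 0.03 for Sgca A_66_P115281, -0.21 to 0.19 for Sgcd A_55_P2717533 and -0.33 to 0.03 for Dtna A_55_P2500791.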

Other observations

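Proteins that tie the complex to the cytoskeleton at the costamere, the rib-like attachment of muscle fibres, were the remaining list, with 13 of 13 genes tested on their brightest probes. In siControl cells 9 rose and 1 fell with differentiation, against 27.7% and 30.1% of all genes, with a median of 0.56 against 0.01. In siBach1 cells the counts were also 9 and 1, against 26.7% and 33.3%, with a median of 0.86 against -0.06. These 9 include Synm, which passed the filter only through siBach1 day 2, where it was higher, and without it 8 of 12 rose and 1 fell, with a median of 0.71, against 24.6%, 36.4% and -0.11 over all genes well above background on all arrays of both groups. Dysf, dysferlin, which acts in membrane repair, rose by 3.74 in siControl and 3.71 in siBach1 cells, Sync, syncoilin, by 1.66 in siControl cells, and Krt19, a keratin, fell by 2.34 and by 2.57. The other tested Dysf probe, A_66_P123684, rose by 1.47 and 2.13.

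Synm, synemin, an intermediate filament protein that binds dystrobrevin, was read on 1 probe. This probe, A_51_P404875, read -4.68, -4.83 and -5.40 with siControl and -1.29, -1.03 and -1.57 with siBach1 at day 2. It was well above background on 1 of the 3 siControl arrays, on all 3 siBach1 arrays and on none at day 0. It entered the test only through the group in which it was high, so neither a test nor a fold is given.

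Vcl, vinculin, fell by 0.89 at day 0 and by 0.60 at day 2 with siBach1 on its brightest probe, A_55_P2797124, while its other tested probe differed by 0.47 and 0.17. Itga7, the laminin-binding integrin chain of muscle, was 0.32 higher at day 0 and fell by 0.34 at day 2, calls made in 8 and 7 of 17 alternatives, and its difference between days was -0.66 (adjusted p 0.017, and -0.30 with normexp). Its other tested probe, A_52_P413034, gave 0.38 at day 0, -0.07 at day 2 (adjusted p 0.71) and -0.45 between days (adjusted p 0.099). Krt8 rose by 1.70 at day 0 (adjusted p 0.026, and 0.60 with normexp), a call made in 11 of 16 alternatives, and by 2.09 on its other tested probe. The list had 2 genes higher and 1 lower at day 0 and 1 higher and 2 lower at day 2, against 10.1% and 9.85% of all genes at day 0 and 6.38% and 7.4% at day 2, with medians of -0.07 and -0.03, against 0.08 and -0.03 over all genes. With a replicate block there were 2 higher and 2 lower at day 0 and 2 higher and 4 lower at day 2, against 17.5% and 13.2% of all genes at day 0 and 10.4% and 13.3% at day 2 with the block. The gene higher at day 2 is Synm, and those with the block are Synm and Krt8, which was well above background on 0 of 3 siControl day 2 arrays. Over the 11 genes well above background on all arrays of both day 2 groups, 0 were higher and 2 lower, against 6.11% and 7.76% of all genes so detected, and 0 and 4 with the block, against 10.1% and 13.9%.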
